A study of Mus musculus with 16 samples.

Results

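Transcripts of 9 genes that PPAR receptors are known to induce when muscle turns to fat as fuel (Angptl4, Pdk4, Ucp3, Cpt1b, Plin2, Plin5, Fabp3, Cd36 and Acadl) were followed by RNA sequencing in mouse quadriceps. The members were chosen by gene symbol, from the 41388 genes of the count table, and all 9 passed the filter on low counts in every comparison. Quadriceps, a thigh muscle made mostly of fast fibres, was taken at 36 days of age from C57BL/6 mice that were wild type (WT) or carried a targeted deletion of an Mtm1 exon (Mtm1 KO), each either without drug or given tamoxifen (TAM), an oestrogen receptor modulator, at 40 mg/kg in the chow from day 21. The study describes the drug chow as premixed with sucrose for palatability and the placebo as standard chow. It does not say whether the placebo held sucrose, so drug and diet cannot be told apart. Mtm1 encodes myotubularin, the lipid phosphatase lost in myotubular myopathy. The comparisons ask how the loss of Mtm1, the drug, and both together moved the genes of fat oxidation and the fasting signals. Each of the 4 groups had 4 libraries, numbered as replicates 1 to 4 (WT), 5 to 8 (WT + TAM), 9 to 12 (Mtm1 KO) and 13 to 16 (Mtm1 KO + TAM). The study used 14 of the 16 libraries and left out WT replicate 1 and Mtm1 KO replicate 12, and the same 14 were used here unless said otherwise. Because the drug was in the feed, intake set the dose of each mouse, and the feeding state when the muscle was taken is not given in the sources used here. The study reported lower body weights on this dose in both genotypes and related them to earlier reports of reduced food intake. The part of intake or weight in the drug comparisons was not tested.

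PPAR alpha, delta and gamma are nuclear receptors that are switched on by fatty acids and bind DNA together with a retinoid X receptor (RXR). Their usual site is a direct repeat of the letters AGGTCA with a single base between the copies. In muscle, the delta and alpha forms raise the genes that bring fatty acids into the cell and burn them, and fasting, exercise and glucocorticoids raise many of the same genes through PPARs and FOXO factors. Angptl4 is a secreted inhibitor of lipoprotein lipase. Pdk4 shuts the pyruvate dehydrogenase gate, so that less glucose enters the citric acid cycle. Cpt1b makes the acylcarnitines that enter mitochondria, Ucp3 is a carrier of the inner mitochondrial membrane that rises with fatty acid supply, and Acadl is an enzyme of beta-oxidation. Cd36 takes up fatty acids at the cell surface, Fabp3 binds them in the cytosol, and Plin2 and Plin5 coat the lipid droplets that store them.

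RefSeq promoter windows on GRCm38.p6, the 250 bases before the start site, matched 7 of the 9 members by symbol, in 8 windows because Plin5 had 2. The windows of Ucp3 and Pdk4 are shown because these genes were both lower in Mtm1 KO + TAM than in Mtm1 KO at an unadjusted p under 0.05 and differ in the motif. The Ucp3 window is on chromosome 7, plus strand, chr7:100472741-100472989, and the Pdk4 window is on chromosome 6, minus strand, chr6:5496310-5496528. Both are written 5′ to 3′ up to the start of the gene in GENCODE vM21, with each copy of AGGTCA or of its reverse complement in capitals.
Ucp3: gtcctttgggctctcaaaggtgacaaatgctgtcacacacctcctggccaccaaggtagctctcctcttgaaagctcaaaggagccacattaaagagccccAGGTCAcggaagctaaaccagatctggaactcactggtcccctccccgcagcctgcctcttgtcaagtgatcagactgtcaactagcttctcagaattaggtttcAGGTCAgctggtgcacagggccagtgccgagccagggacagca
Pdk4: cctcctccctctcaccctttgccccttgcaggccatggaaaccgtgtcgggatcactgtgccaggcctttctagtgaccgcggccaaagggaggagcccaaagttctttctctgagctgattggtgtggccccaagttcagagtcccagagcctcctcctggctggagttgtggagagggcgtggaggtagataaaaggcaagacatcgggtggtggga
The Ucp3 window held AGGTCA on the coding strand in 2 places, 149 to 144 and 44 to 39 bases before the RefSeq start. The Pdk4 window held none. AGGTCA on either strand was present in the windows of 4 members (Ucp3, Plin2, Cd36 and Plin5) and in 14% of 32851 promoter windows of the same length. The full direct repeat with at most 2 mismatches was found in 3 members, Ucp3, Plin2 and Cd36, and in 3.24% of all windows. A match of letters is a description of the window and says nothing about binding.

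The libraries held 25116179 to 29847222 counts. Mtm1 itself was at 13.3 to 14.6 CPM (read counts divided by library size, on the usual CPM scale) in the 3 WT libraries and at 2.06 to 2.55 in the 3 Mtm1 KO libraries. In the library labelled WT replicate 1 it was at 3.69, near the Mtm1 KO level, and with that library and Mtm1 KO replicate 12 the Mtm1 difference was -2.16 (log2, adjusted p = 0.0113 in the edgeR test used throughout, the quasi-likelihood test) in place of -2.56 (adjusted p = 2.14e-04). These 2 libraries also had the lowest level of long against short transcripts, with shifts of -0.83 and -0.41 (log2) against -0.33 to 0.38 in the other 14. WT + TAM replicates 7 and 8 were the closest pair of any group. Their counts differed by a chi-square of 12.4 per gene, against 1 for sampling noise alone and 34.0 to 267 for every other pair within a group. They therefore differed by more than counting error, but repeat libraries of 1 animal would as well, and only the study's general statement on n, not the labels, makes them separate mice. Both were kept, and the calls lost when either is left out are given with the results. CPM was scaled by TMM, which corrects for the few abundant genes that took 23.6 to 27.6% of the counts in WT and 16.9 to 18.8% in Mtm1 KO (the 10 most abundant genes of each library, over the libraries of the study).

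The 9 genes spanned a wide range of levels per length. In WT the mean RPKM (reads scaled to gene length and library size) was 607 ± 246 (SD, n = 3) for Fabp3, 186 ± 91.5 for Pdk4, 144 ± 57.0 for Acadl, 69.8 ± 29.2 for Cd36 and 38.3 ± 4.08 for Ucp3. It was 14.7 ± 5.96 for Plin2, 9.12 ± 4.13 for Plin5, 8.19 ± 1.20 for Cpt1b and 5.53 ± 2.42 for Angptl4. Neighbours in this order overlapped between WT libraries except Fabp3 with Pdk4 and Ucp3 with Plin2. The spread within a group was wide for most members. The coefficient of variation of the RPKM in WT was 39.7% or more for 7 members and 10.7% and 14.7% for Ucp3 and Cpt1b.

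**Figure D1:**
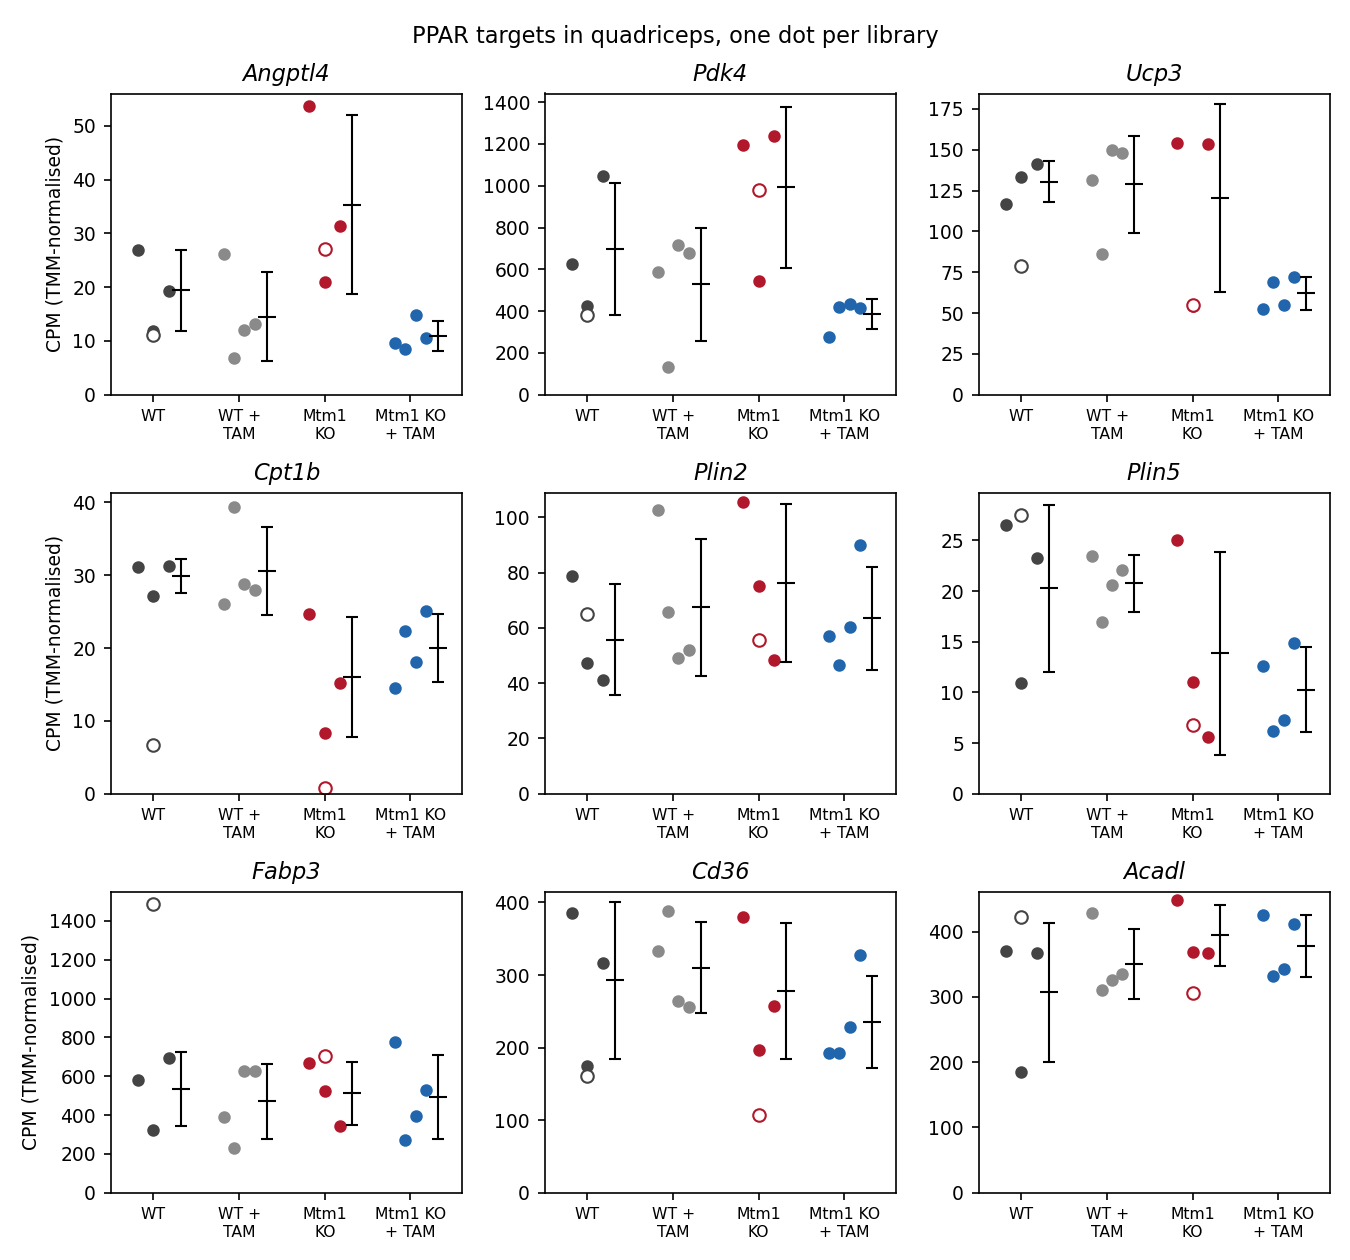
Level of each of the 9 genes in each library, in TMM-normalised CPM on a linear axis from 0, for the 4 groups. Filled dots are the 14 libraries of the study, open dots WT replicate 1 and Mtm1 KO replicate 12, and the bar beside each group is the mean ± SD of the filled dots. Angptl4 and Pdk4 in Mtm1 KO + TAM lie below every Mtm1 KO library, and Ucp3 in Mtm1 KO + TAM below every WT and WT + TAM library.

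Few of the members passed the test in any comparison. A gene was called at an adjusted p of at most 0.01 by the quasi-likelihood (QL) test of edgeR, with Benjamini-Hochberg adjustment over all genes tested. In Mtm1 KO against WT, 0 of 9 members were called, against 3.6% of the 14740 genes tested. At an unadjusted p under 0.05 there were 2 (Angptl4 higher, Cpt1b lower), against 30.1% of all genes, and DESeq2, edgeR's exact test and limma on RPKM also called 0. Between the treated genotypes, 1 was called, Ucp3, which was lower, against 6.72% of all genes. In WT + TAM against WT, 0 were called, against 0.131% of all genes, with 0 at an unadjusted p under 0.05 and 0 by the other tools. For the drug in Mtm1 KO, 0 were called, against 0% of all genes. At an unadjusted p under 0.05 there were 3 (Angptl4, Pdk4 and Ucp3, all lower), against 7.55% of all genes.

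For the drug in Mtm1 KO the choice of test decided the count. DESeq2 and edgeR's exact test each called 2 members, Angptl4 and Pdk4, against 0.488% and 0.478% of all genes. The quasi-likelihood test without the filter on low counts called the same 2 members, against 0.0521% of all genes. Limma on RPKM called 0. Against untreated WT, 1 member was called in Mtm1 KO + TAM, again Ucp3, against 7.7% of all genes. Averaged over drug, 1 was called lower in Mtm1 KO, Cpt1b, against 19.4% of all genes. Averaged over genotype, 0 were called for the drug, against 0.591% of all genes, with 3 (Angptl4, Pdk4 and Ucp3, all lower) at an unadjusted p under 0.05, against 14.1% of all genes, and 0 by DESeq2 (2.21% of all genes) and limma. The interaction, which asks whether the effect of the drug differs between the genotypes, called 0 members and 0% of all genes. At an unadjusted p under 0.05 it had 2 members, Angptl4 and Ucp3, against 4.27% of all genes, and DESeq2 (0.0736% of all genes) and limma called 0 members.

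At an adjusted p of at most 0.05, 3 members (Ucp3, Cpt1b and Plin5) were lower in Mtm1 KO + TAM than in WT + TAM, against 17% of all genes, and the same 3 were lower in Mtm1 KO averaged over drug, against 33.3%. Against untreated WT, 4 members (Angptl4, Pdk4, Ucp3 and Cpt1b) were lower in Mtm1 KO + TAM at that threshold, against 20% of all genes. Counted by libraries that did not overlap on the CPM scale, 1 member (Cpt1b) was lower in Mtm1 KO than in WT, where 36.3% of all genes separated. Between the treated genotypes, 3 members (Ucp3, Cpt1b and Plin5) were lower in every Mtm1 KO + TAM library, against 22.5% of all genes. Against untreated WT there were 2 (Ucp3 and Cpt1b), against 31.4%. With the drug, 0 members separated in WT, against 11.4%, and 2 (Angptl4 and Pdk4, both lower) separated in Mtm1 KO, against 7.7%.

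**Figure D2:**
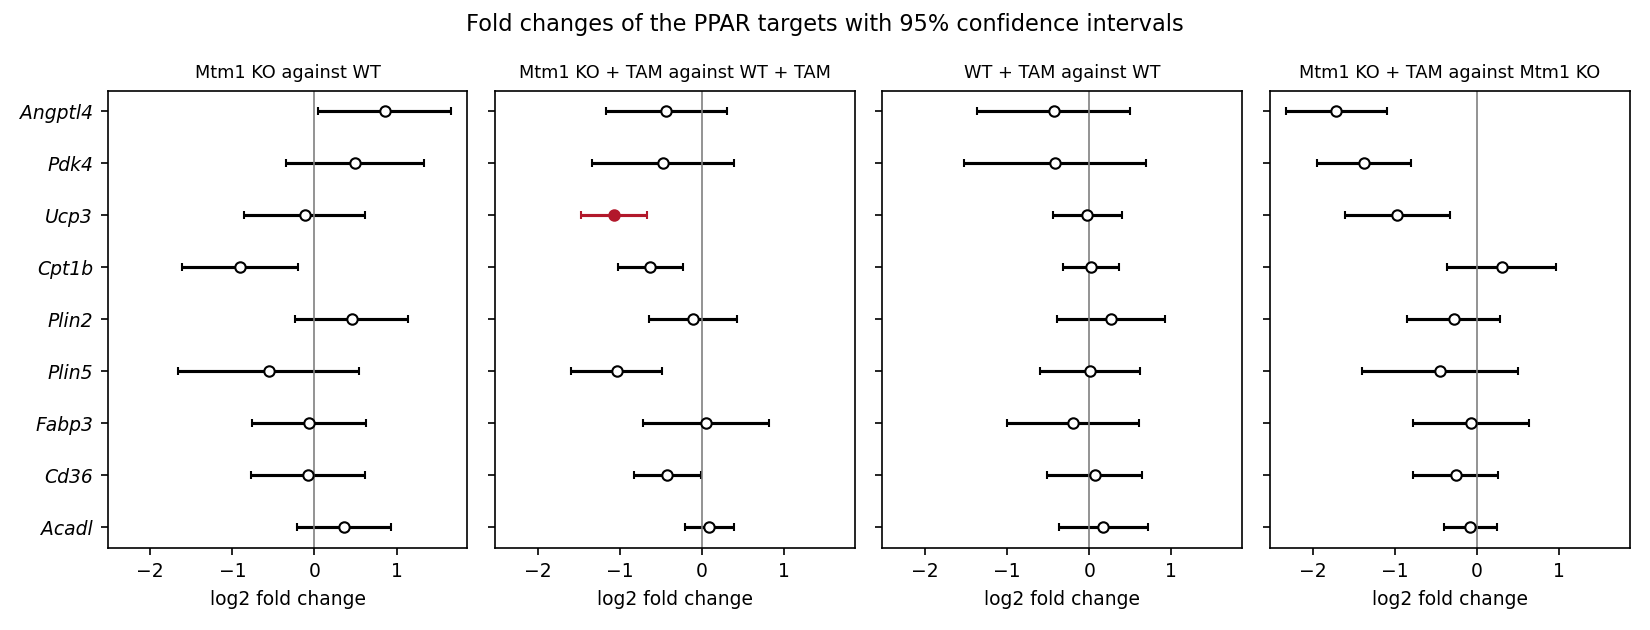
Log2 fold change of each gene with its 95% confidence interval in 4 comparisons, from the QL fit of edgeR. The filled red dot is Ucp3, the only gene called at an adjusted p of at most 0.01 in these panels, at -1.07 in Mtm1 KO + TAM against WT + TAM. In the panel of the drug in Mtm1 KO, the intervals of Angptl4, Pdk4 and Ucp3 lie below 0, and their adjusted p-values did not pass.

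Angptl4 (chr17:33773750-33781830, minus strand, GRCm38) had its highest group mean in untreated Mtm1 KO muscle and its lowest in Mtm1 KO + TAM. Its CPM was 53.6, 21.0 and 31.3 in Mtm1 KO replicates 9 to 11 and 9.55, 8.55, 14.8 and 10.6 in Mtm1 KO + TAM replicates 13 to 16. Every treated Mtm1 KO library was below every untreated one, Mtm1 KO replicate 12 (27.0) included. The difference was -1.71 (log2, SE 0.28, 95% interval -2.32 to -1.10), the 11th lowest p of 15062 genes, with an adjusted p of 0.0886 in the QL test of edgeR, so it did not pass. DESeq2 gave an adjusted p of 6.25e-06 and the exact test 5.87e-06. With each library left out in turn, the difference was -1.97 to -1.29 and the adjusted p 0.0389 to 0.282. In the WT background Angptl4 was at 26.9, 11.9 and 19.4 CPM without the drug and at 26.1, 6.76, 11.97 and 13.1 with it. These WT groups overlapped, and the difference of -0.44 (SE 0.41) had an adjusted p of 0.761 by the same test. The effect of the drug was 1.26 lower in Mtm1 KO than in WT on the log2 scale (-1.26, SE 0.55, unadjusted p = 0.0372, adjusted p = 0.9998 in the edgeR interaction term), so a difference between the genotypes was not called. Without the drug, Angptl4 was 0.85 (SE 0.36) higher in Mtm1 KO than in WT, with an adjusted p of 0.148 by edgeR. That difference was 0.44 without Mtm1 KO replicate 9 and 0.59 to 1.16 with any other single library left out.

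Pdk4 (minus strand of chromosome 6, shown above) had a like pattern in Mtm1 KO. In Mtm1 KO replicates 9 to 11 its CPM was 1194, 546.5 and 1236, and in Mtm1 KO + TAM it was 277.9, 422.2, 432.5 and 415.5. The groups did not overlap, and Mtm1 KO replicate 12, at 980, was also above all 4 treated libraries. The difference was -1.37 (SE 0.26, 95% interval -1.94 to -0.80), with an adjusted p of 0.132 in the QL test of edgeR and 1.17e-04 in DESeq2. In WT, Pdk4 was at 626, 425 and 1045 CPM, and in WT + TAM at 587, 132, 718 and 677. Those groups overlapped, with a difference of -0.42 (SE 0.50). WT + TAM replicate 6, at 132, was the lowest of all 16 libraries for Pdk4 and for Angptl4. Without that library, Pdk4 was 0.80 lower on the log2 scale (-0.80) in Mtm1 KO + TAM than in WT + TAM with an adjusted p of 0.00992, against -0.47 and 0.443 with it (the QL test of edgeR), so 1 library decided that call. Against untreated WT, leaving out WT replicate 3 brought Pdk4 (-1.16, adjusted p = 0.00899) and Angptl4 (-1.13, adjusted p = 0.00865) past the threshold in Mtm1 KO + TAM, from 0.0417 and 0.0405 with it, by the same test. Pdk4 shared 1.4% of its 50-base stretches with transcripts of other genes.

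Ucp3 (plus strand of chromosome 7, shown above) was low in all 4 Mtm1 KO + TAM libraries, at 52.3, 69.1, 55.1 and 72.3 CPM. In WT + TAM it was at 131.5, 86.0, 149.9 and 148.0, and in WT at 117, 133 and 141. The treated Mtm1 KO libraries were below every WT and WT + TAM library, WT replicate 1 (78.8) included. Ucp3 fell by 1.07 (SE 0.18, adjusted p = 0.00322) against WT + TAM and by 1.10 (SE 0.14, adjusted p = 8.53e-04) against WT in the QL test of edgeR. The call against WT + TAM, the only one among the members in that comparison, was lost, with an adjusted p of 0.0104 to 0.0151, when WT + TAM replicate 7 or 8 or Mtm1 KO + TAM replicate 13 or 15 was left out, and the call against WT was lost with all 16 libraries (-0.96, adjusted p = 0.0171). Untreated Mtm1 KO was split. Replicates 9 and 11 were both at 154 CPM, above every WT library, while replicate 10 was at 54.2 and replicate 12 at 55.0, within the range of the treated libraries. The Mtm1 KO + TAM group therefore overlapped Mtm1 KO, and the difference of -0.97 (SE 0.29) had an adjusted p of 0.380 by edgeR. The interaction was -0.93 (SE 0.40, unadjusted p = 0.0320, adjusted p = 0.9998 in edgeR).

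Cpt1b (chr15:89416405-89425863, minus strand) was lower in both Mtm1 KO groups. It was at 31.2, 27.1 and 31.3 CPM in WT and 26.0, 39.4, 28.7 and 28.0 in WT + TAM. In Mtm1 KO it was at 24.7, 8.29 and 15.2, and in Mtm1 KO + TAM at 14.5, 22.4, 18.1 and 25.1. No library of the study from either Mtm1 KO group reached the lowest WT or WT + TAM value. Averaged over drug, Cpt1b fell by 0.78 (log2, SE 0.19, adjusted p = 0.00560) in the QL test of edgeR. The call was lost with all 16 libraries (-0.82, adjusted p = 0.158), without TMM scaling (-0.47, adjusted p = 0.0584), and when WT replicate 2 or 4, WT + TAM replicate 6, Mtm1 KO replicate 11 or Mtm1 KO + TAM replicate 13 or 15 was left out, where the highest adjusted p was 0.0158. WT replicate 1 held only 6.73 CPM and Mtm1 KO replicate 12 only 0.791 CPM, or 22 reads. In GENCODE vM21, 81.4% of the exon bases of Cpt1b also belong to the gene model Gm44502 on the same strand, so its level depends on how the authors' annotation and counting treated that overlap. With the drug, Cpt1b differed by 0.02 (SE 0.15) in WT and by 0.31 (SE 0.30) in Mtm1 KO, with adjusted p-values of 0.981 and 0.889 by edgeR.

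The other 5 genes, like Angptl4 and Pdk4, were not called in any comparison by the QL test of edgeR on the libraries of the study. Plin5 was at 23.4, 16.9, 20.6 and 22.1 CPM in WT + TAM and at 12.6, 6.23, 7.31 and 14.9 in Mtm1 KO + TAM. All treated Mtm1 KO libraries were below all treated WT libraries, and the difference was -1.04 (SE 0.25, adjusted p = 0.0175 in the QL test of edgeR, 8.81e-04 in DESeq2). In untreated muscle the Plin5 groups overlapped, from 10.98 to 26.57 CPM in WT and from 5.63 to 25.02 in Mtm1 KO. Leaving out Mtm1 KO + TAM replicate 16 brought the treated difference past the threshold (-1.27, adjusted p = 0.00767 by edgeR), as leaving out Mtm1 KO replicate 9 did for the genotype averaged over drug (-1.17, adjusted p = 0.00356). Plin2, the other droplet coat, ranged from 41.2 to 78.7 CPM in WT, 49.0 to 103 in WT + TAM, 48.4 to 105.5 in Mtm1 KO and 46.7 to 90.1 in Mtm1 KO + TAM, so all 4 groups overlapped. Its differences lay between -0.28 and 0.45 (log2) in the 5 pairwise comparisons, with adjusted p-values of 0.353 or more by edgeR.

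Uptake and binding of fatty acids showed no called change either. Cd36 was at 175 to 386 CPM in WT, 256 to 388 in WT + TAM, 197 to 380 in Mtm1 KO and 192 to 327 in Mtm1 KO + TAM. Its most negative difference was -0.42 (SE 0.19), in Mtm1 KO + TAM against WT + TAM, with an adjusted p of 0.148 by edgeR. Fabp3, with 37.3% of its 50-base stretches shared with other transcripts, mostly the pseudogene Fabp3-ps1, was at 323 to 696 CPM in WT, 232 to 629 in WT + TAM, 344 to 667 in Mtm1 KO and 270 to 775 in Mtm1 KO + TAM. Acadl, with the lowest SD of log2 CPM over the 14 libraries among the 9 (0.31), was at 184 to 371 CPM in WT, 311 to 429 in WT + TAM, 367 to 448 in Mtm1 KO and 332 to 426 in Mtm1 KO + TAM. Its difference averaged over drug was 0.21 (95% interval -0.10 to 0.52), and the intervals of Fabp3 and Cd36 were -0.60 to 0.55 and -0.67 to 0.14. Differences of any size within these intervals remain compatible with the data.

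Some libraries were high or low for most of the 9 genes. Mtm1 KO replicate 9 was the highest of its 3 libraries for 8 of 9 members, against 36.3% of all genes. WT replicate 3 was the lowest of its group for 7 of 9, against 28.8%, and WT + TAM replicate 6 the lowest for 6 of 9, against 30.0%. The median difference over the 9 members was -0.07 in Mtm1 KO against WT, where the median of all genes was 0.02. It was -0.43 in Mtm1 KO + TAM against WT + TAM (all genes -0.01), 0.01 in WT + TAM against WT (all genes -0.0036) and -0.28 for the drug in Mtm1 KO (all genes -0.01). For the drug in Mtm1 KO, 8 of 9 members had a lower fitted level and 1, Cpt1b, a higher one. Without TMM scaling the median of all genes was 0.27 to 0.33 in the comparisons of genotype, against -0.01 to 0.02 with it, and called members kept their direction.

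The receptors themselves were measured alongside. Among 13 receptors and coregulators, 2 were called in Mtm1 KO against WT (3.6% of all genes were) and both were lower, the RXR genes Rxrg (-1.47, SE 0.19, adjusted p = 0.00233) and Rxra (-0.74, SE 0.13, adjusted p = 0.00774), in the QL test of edgeR. Rxrg, the isoform enriched in skeletal muscle, was at 56.2, 84.5 and 59.8 CPM in WT and at 27.2, 19.1 and 25.9 in Mtm1 KO. No Mtm1 KO library reached a WT library, and the treated groups, at 52.4 to 86.6 in WT + TAM and 17.3 to 36.2 in Mtm1 KO + TAM, were apart in the same way. With all 16 libraries Rxrg was still called (-1.52, adjusted p = 0.00199 by edgeR) and Rxra was not (-0.75, adjusted p = 0.0246).

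With the drug in both genotypes, 3 RXR genes fell in Mtm1 KO, Rxrg by 1.63 (SE 0.23), Rxra by 0.90 (SE 0.13) and Rxrb by 0.47 (SE 0.10), with adjusted p-values of 0.00120, 0.00135 and 0.00826 by edgeR, where 6.72% of all genes were called. The call of Rxrb was lost without WT + TAM replicate 7 or 8 (adjusted p = 0.0267 and 0.0212 by edgeR). Averaged over drug, 5 of the 13 genes fell and 0 rose, against 19.4% of all genes called, with Rxrg, Rxra and Ppard (-0.48, SE 0.08, adjusted p = 4.87e-04, edgeR's test) at the lowest p. Without TMM scaling the direction of Rxrg, Rxra and Ppard was the same in this comparison, at -1.26, -0.52 and -0.17, with adjusted p-values of 1.98e-05, 2.98e-04 and 0.110 by edgeR, so the call of Ppard was lost. The call of Rxrb between the treated genotypes was also lost without TMM (-0.20, adjusted p = 0.173 by edgeR), and Rxrb changed sign, from -0.19 to 0.09, in Mtm1 KO + TAM against WT, where it was not called. Ppara was at 1.12 to 7.09 CPM over the 14 libraries and was not called in any comparison. With the drug, 0 of the 13 were called in Mtm1 KO or in WT by the QL test of edgeR, and 0 by DESeq2. At an unadjusted p under 0.05 there were 2 and 3, against 7.55% and 10.7% of all genes.

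**Figure D3:**
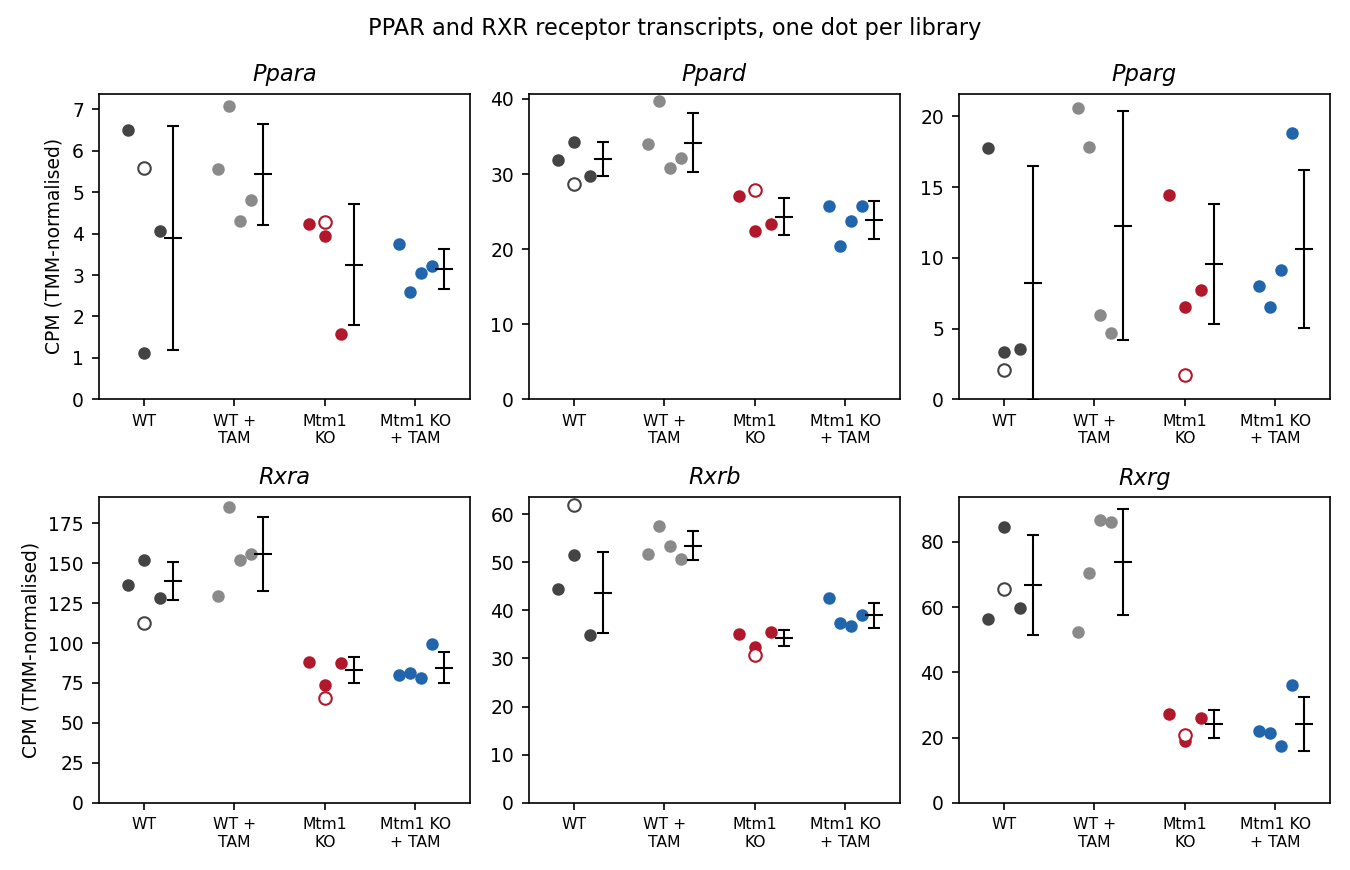
Level of the 3 PPAR and 3 RXR genes in each library, in TMM-normalised CPM on linear axes from 0, with symbols as in the plot of the 9 target genes. Rxrg in the study's libraries was at 52.4 to 86.6 in the WT groups and at 17.3 to 36.2 in the Mtm1 KO groups, and Rxra was at 127.9 to 185.4 in the WT groups and at 73.5 to 99.5 in the Mtm1 KO groups.

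Few other genes of the fat oxidation pathway were called. Of 14 enzymes of beta-oxidation, 0 were called in any of the 8 comparisons by the QL test of edgeR. At an unadjusted p under 0.05 there was 1 in Mtm1 KO against WT (30.1% of all genes), and there were 0 for the drug in Mtm1 KO (7.55%). There were 2 both between the treated genotypes and averaged over drug, all lower, against 32.3% and 43.7% of all genes. DESeq2 called 1 of them, averaged over drug. The median difference of the 14 enzymes averaged over drug was -0.07 for genotype, and averaged over genotype 0.07 for the drug. Between the treated genotypes 13 of the 14 had a lower fitted level in Mtm1 KO (median -0.15), and without the drug 7 did (median -0.0025). In the carnitine shuttle, which carries acyl groups into mitochondria, 2 of 7 fell in Mtm1 KO averaged over drug, a count near the 19.4% of all genes called there. These were Crat, the carnitine acetyltransferase (-0.49, SE 0.09, adjusted p = 4.69e-04, edgeR), and Acacb, which makes the malonyl-CoA that inhibits Cpt1b (-0.62, SE 0.15, adjusted p = 0.00470, edgeR). The carnitine importer Slc22a5 fell by 0.76 (SE 0.15, adjusted p = 0.00573, edgeR) in Mtm1 KO + TAM against WT + TAM, a call that was lost without WT + TAM replicate 8 (adjusted p = 0.0126).

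At the pyruvate dehydrogenase gate, 2 of 9 genes were called averaged over drug, again near the 19.4% of all genes. Both are kinases of the same family as Pdk4. The kinase Pdk3 rose by 0.93 (SE 0.22, adjusted p = 0.00500) in Mtm1 KO and Pdk2 fell by 0.42 (SE 0.09, adjusted p = 0.00310), by edgeR. The call of Pdk3 was lost without WT + TAM replicate 8 (adjusted p = 0.0108). Pdk3 was at 0.915 to 2.44 CPM in the WT groups and 2.56 to 4.88 in the Mtm1 KO groups. Uptake and activation (13 genes) and lipid droplets and lipolysis (12 genes) had 0 called in all 8 comparisons by the QL test of edgeR. Averaged over drug, 4 genes of each list had an unadjusted p under 0.05 for genotype, against 43.7% of all genes, and DESeq2 called 1 and 3, against 25.3%. Of 9 genes of peroxisomal oxidation and ketone bodies, 1 was called, Oxct1, which activates ketone bodies for oxidation and fell by 1.15 (SE 0.22, adjusted p = 0.00516, edgeR) in Mtm1 KO + TAM against WT, where 7.7% of all genes were called.

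Angptl4 and Pdk4 are raised by fasting, and 15 other genes of the fasting and glucocorticoid response were measured. Of these, 4 were called in Mtm1 KO averaged over drug, 3 higher and 1 lower, against 19.4% of all genes. Cdkn1a, a cell cycle inhibitor also raised by p53, rose by 3.13 (SE 0.21, adjusted p = 1.39e-07), the muscle ubiquitin ligase Trim63 rose by 0.76 (SE 0.19, adjusted p = 0.00666), and Sesn1 fell by 0.42 (SE 0.10, adjusted p = 0.00472), all by edgeR. Cdkn1a was at 29.3 to 65.9 CPM in both WT groups and at 249 to 586 in the study's libraries of both Mtm1 KO groups. Without the drug, 12 of the 15 were higher in Mtm1 KO (median 0.68), 7 at an unadjusted p under 0.05 (30.1% of all genes were). With the drug in both genotypes, 11 were lower (median -0.55), 5 of them and 2 higher genes under 0.05 (32.3% of all genes). The interaction was negative for 14 (median -0.71), 6 under 0.05 (4.27% of all genes), with 0 called, all by the QL test of edgeR. Sesn1 differed by -0.11 without the drug and by -0.71 with it. For the drug in Mtm1 KO, 0 of the 15 were called by the QL test of edgeR, 3 were lower at an unadjusted p under 0.05 (7.55% of all genes were under it), and DESeq2 called 1. Their median there was 0.03, while that of the 9 PPAR targets was -0.28. In WT + TAM against WT, 0 were called, but 11 of the 15 were higher at an unadjusted p under 0.05, where 10.7% of all genes were under it in either direction. DESeq2 called 3, against 1.47% of all genes, and the median was 0.78. The lowest adjusted p among them was 0.0298 (edgeR). For genotype averaged over drug, the call of Trim63 was lost without WT + TAM replicate 7 or 8 (adjusted p = 0.0119 and 0.0112) and that of Sesn1 without replicate 7 (0.0101), by edgeR.

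Of 10 genes of mitochondrial content, 3 fell in Mtm1 KO averaged over drug by edgeR, against 19.4% of all genes called. Vdac1, the channel of the outer membrane, fell by 0.58 (SE 0.09, adjusted p = 2.34e-04), Ndufs1 of complex I by 0.55 (SE 0.11, adjusted p = 0.00196) and Tfam, which packs and transcribes mitochondrial DNA, by 0.38 (SE 0.09, adjusted p = 0.00525). Tfam was the 1 gene of these lists called for the drug in WT and averaged over genotype by edgeR. It was at 45.1, 50.5 and 44.4 CPM in WT and at 97.6, 90.7, 90.1 and 93.0 in WT + TAM, and it rose by 0.99 (SE 0.10, adjusted p = 0.00295, edgeR). The WT groups were far apart, but the call was lost without WT + TAM replicate 7 or 8 (adjusted p = 0.0184 and 0.0226, edgeR), as was the genotype call without replicate 8 (0.0102). Averaged over genotype, Tfam was called without either. In Mtm1 KO it was at 48.9, 36.0 and 38.0 without the drug and 72.8, 68.9, 51.1 and 63.3 with it, groups that did not overlap, with a difference of 0.63 (SE 0.16) that was not called (adjusted p = 0.263 by edgeR). Without TMM scaling, the genotype calls of Crat, Acacb, Pdk2, Slc22a5, Sesn1, Vdac1, Ndufs1 and Tfam given above were lost, with adjusted p-values of 0.0118 to 0.487 by edgeR and the direction kept, and Tfam in Mtm1 KO against WT, which was not called, changed sign (to 0.13). With all 16 libraries, the calls of Oxct1 (adjusted p = 0.0116), Sesn1 (0.0251), Ndufs1 (0.0159) and Tfam for genotype (0.0105) were lost by edgeR.

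**Figure D4:**
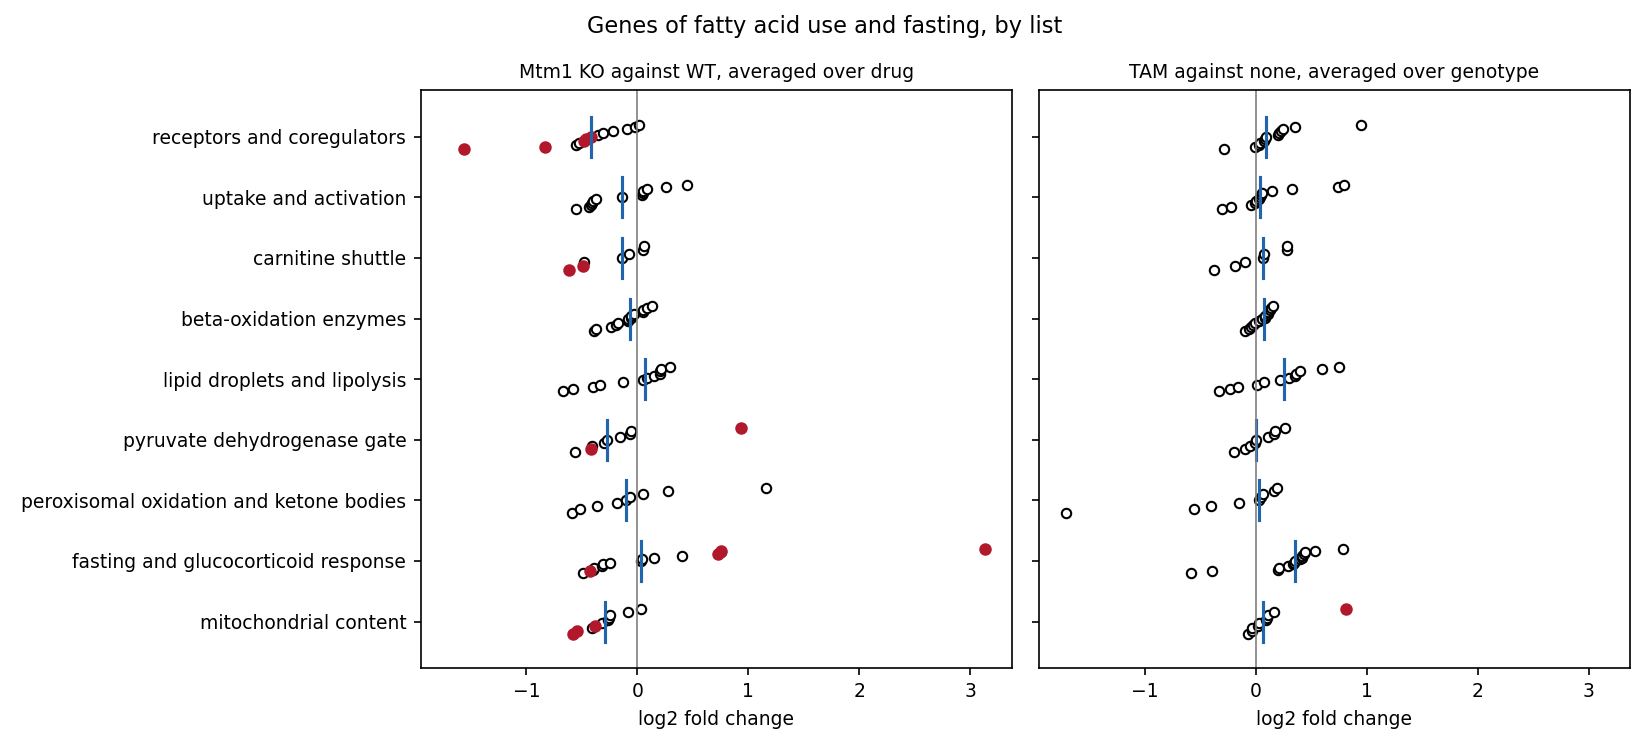
Log2 fold changes of the genes in 9 lists of fatty acid use, fasting and mitochondria, for genotype averaged over drug (left) and drug averaged over genotype (right). Each dot is 1 gene, red where it was called at an adjusted p of at most 0.01 by edgeR's test, and the blue bar is the median of the list. Beta-oxidation enzymes lie from -0.39 to 0.14 for genotype and from -0.09 to 0.15 for the drug. The receptors lie to the left for genotype, and Tfam is the 1 red dot for the drug.

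Quadriceps holds several cell types, and in whole tissue fewer cells of a type and less RNA per cell cannot be told apart. Of 10 markers of skeletal muscle fibres, 9 were called lower in Mtm1 KO averaged over drug, where 19.4% of all genes were called. The remaining marker, Myh1, was higher by 0.87 (log2) and not called by edgeR. DESeq2 called all 10, against 25.3% of all genes. This list shares no gene with that of slow and oxidative fibres. Of 9 markers of slow and oxidative fibres, 3 were called higher, with a summed RPKM of 244 to 2779 in WT and 2349 to 3668 in Mtm1 KO. WT replicate 1, left out by the study, summed to 6183, and with all 16 libraries 1 of these markers was called. The study's myosin staining of another muscle, tibialis anterior, showed no difference in fibre types between WT and untreated Mtm1 KO. It showed more type 2B and fewer type 1 and 2A fibres in Mtm1 KO given the drug than in untreated Mtm1 KO. Here 0 slow fibre markers were called for the drug in either genotype by edgeR. Fitted levels were lower with it for 7 of 9 in Mtm1 KO (median -0.24) and 8 of 9 in WT (median -0.67). At an unadjusted p under 0.05 there were 0 and 1 of them, against 7.55% and 10.7% of all genes. Macrophage markers had 3 of 9 called higher in Mtm1 KO averaged over drug, from a summed RPKM of 99.2 to 121 in WT to 174 to 255 in Mtm1 KO. Sums of RPKM are not scaled by TMM. Scaled to library size only, the median of all genes was 0.33 (log2) higher in Mtm1 KO than in WT. Averaged over drug, 2 of 6 fibroblast markers were also called higher in Mtm1 KO, and 1 of 8 endothelial markers was called lower. With the drug, 0 endothelial markers were called by edgeR, but all 8 had a lower fitted level in both genotypes. At an unadjusted p under 0.05 there were 4 in Mtm1 KO (7.55% of all genes) and 6 in WT (10.7%). DESeq2 called 3 averaged over genotype (2.21% of all genes). The summed RPKM of the endothelial markers was 89.2 to 123.1 in Mtm1 KO and 63.3 to 86.8 in Mtm1 KO + TAM, groups that did not overlap, as Angptl4 and Pdk4 did not. It was 76.2 to 122.7 in WT and 59.1 to 79.8 in WT + TAM, which overlapped. Fat cells also express Angptl4, Cd36 and Plin2. Their 11 markers had 0 called in all 8 comparisons by edgeR's test (and 0 by DESeq2 and limma), with a summed RPKM of 359 to 2442 in WT, 990 to 3803 in WT + TAM, 1531 to 3171 in Mtm1 KO and 1517 to 2325 in Mtm1 KO + TAM. All 11 were higher in WT + TAM than in WT (median 0.98, 2 at an unadjusted p under 0.05, against 10.7% of all genes). With the drug in Mtm1 KO 10 were lower (median -0.18, 1 under 0.05, against 7.55%). In Mtm1 KO + TAM against WT + TAM all 11 were lower (median -0.58, 0 under 0.05, against 32.3%). All 11 had a negative interaction (median -1.43, 1 under 0.05, against 4.27%), as Angptl4 did. WT replicate 3 was the lowest of the 3 WT libraries of the study for 7 of the 9 genes. It held the lowest sums of fat cell (359) and slow fibre (244) markers among all 16 libraries. No marker of any list was at 0 in a whole group. The part of these shifts in the members' values was not tested.

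By the root mean square difference of centred log2 CPM over the 14 libraries, the genes nearest to Ucp3 among 15556 were Rnls (0.30), Ldha-ps2 (0.31) and Col4a5 (0.36). Those nearest to Cpt1b were Klhl24 (0.18), Tfdp1 (0.20) and Dock4 (0.20). The 14 points share the genotype and drug groups and the differences between libraries, so these are descriptions only.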

How the data were processed

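RNA of quadriceps was sequenced in 16 libraries. Per the authors' methods, reads were aligned to GRCm38 with STAR (2.5.0c in the submitters' processing notes, which also list bcl2fastq 2.17 and Cufflinks 2.2.1) and counted per gene with HTSeq. The deposited counts are whole and unscaled, and the deposited RPKM values were scaled by the authors to library size and gene length. No source used here names the annotation, strand setting or counting mode.

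Counts were tested with R 4.3.3 and edgeR 4.0.16, with filterByExpr (minimum count 10, minimum total 15), TMM normalization and the quasi-likelihood test, at a Benjamini-Hochberg adjusted p of at most 0.01 over all genes tested. Pairwise comparisons were fitted on the 2 groups compared, and averages and the interaction in 1 fit of the 4 groups. The labels do not say that replicates are separate mice, while the study's text does. The scripts were tested on simulated data. Alternatives used DESeq2 1.42.0, the exact test and limma 3.58.1 on log2(RPKM + 0.1) and log2(RPKM + 1), other scalings, no filter, all 16 libraries and each library left out. Leaving out WT + TAM replicate 7 or 8 for genes beyond the members was added after seeing the data.

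The members and gene lists were chosen with earlier results of these data known. The genes named were all 9 members, at most 3 genes called per list and comparison by lowest p, Mtm1, and the 3 genes nearest to each called member. Ppara, Myh1, Fabp3-ps1 and Gm44502 were named after their values were seen.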

Additional observations from a re-analysis of the deposited data

Results flagged for a closer look

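Outlying libraries were sought in each of the 4 libraries of a group for each of the 9 genes, 36 groups in all, with Dixon's ratio (the gap to the nearest library over the range of the group) against its 95% critical value. Chance alone passes that value in about 1 in 20 groups, and 2 of the 36 passed it. Pdk4 in Mtm1 KO + TAM replicate 13 was at 277.9 CPM while the other 3 libraries held 415.5 to 432.5, a ratio of 0.890. Cpt1b in WT replicate 1 was at 6.728 CPM while the other 3 held 27.14 to 31.32, a ratio of 0.830. WT replicate 1 is a library that the study left out. No gene of the 9 separated in opposite directions between the genotypes or between drug groups, and no interaction was called.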

How the results depend on the processing

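Over all alternatives, 1313 of 1359 values of the 9 genes stayed on the same side of the threshold, called or uncalled, and 20 lost a call. A call was gained by 26, some of them only because the threshold was 0.05, and 0 called values turned in direction. Of the uncalled values, 110 changed sign, for main differences of up to 0.474 (log2) in size. The counts for Mtm1 KO against WT, WT + TAM against WT, the drug averaged over genotype and the interaction stayed at 0 throughout. Over the alternatives, these 4 in turn had 1.21% to 12.8%, 0.0135% to 1.47%, 0.321% to 2.21% and 0% to 0.0736% of all genes called. Between the treated genotypes (1 member, 6.72% of all genes), the count was 3 at an adjusted p of 0.05 (17% of all genes). It was 2 with DESeq2 (13.7%), the exact test (12.5%) or no filter (5.43%). With limma at either pseudocount (7.66% and 11.3%) or 1 fit of all 4 groups (8.52%) it was 0. With a library left out it was 0 to 2 (2.88% to 6.2%). For the drug in Mtm1 KO (0) the count was 2 with DESeq2 (0.488% of all genes), the exact test (0.478%) or no filter (0.0521%). For Mtm1 KO + TAM against WT (1 member, 7.7% of all genes) it was 4 at 0.05 (20% of all genes). It was 2 with DESeq2 (15.9%) and 4 with no filter (7.92%). With limma at a pseudocount of 0.1 (4.73%), 1 fit of all 4 groups (8.16%) or all 16 libraries (2.03%) it was 0. With a library left out it was 1 to 3 (3.46% to 8.45%). For genotype averaged over drug (1 member, 19.4% of all genes) it was 3 at 0.05 (33.3%) and 2 with DESeq2 (25.3%). With library size only (32.8%), limma at either pseudocount (31.1% and 32.6%) or all 16 libraries (13.9%) it was 0. With a library left out it was 0 to 2 (14.5% to 20.2%). Over all genes, DESeq2 called 1678, 1995, 214, 72 and 2375 genes in the 5 pairwise comparisons in the order untreated genotypes, treated genotypes, drug in WT, drug in Mtm1 KO and Mtm1 KO + TAM against WT, where the QL test of edgeR called 531, 979, 19, 0 and 1150. With all 16 libraries the untreated genotypes had 211 calls and Mtm1 KO + TAM against WT 297. The cause of these moves was not tested. The study describes the samples as coming from littermates, but no litter identity was available here. No paired analysis was therefore possible, and likeness within litters was not modelled. With 3 or 4 libraries a group and the feeding state at collection not given in the sources used here, modest changes of these variable genes are hard to resolve.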
